A study of Bos taurus with 9 samples.

Results

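The genes described here are the most abundant transcripts of bovine oocytes and 2-cell embryos. They were chosen by their mean level over all 9 libraries, which had to reach 1000 FPKM (a fragment count corrected for transcript length and for the library's number of fragments), and 185 of 24616 gene identifiers, or 0.752%, met that rule. Libraries were made from Holstein material in 3 groups of 3. MII oocytes, unfertilised eggs arrested at the second meiotic metaphase, were pooled by 3. IVF embryos, made by fertilisation in vitro, and SCNT embryos, made by transfer of a somatic cell nucleus into an egg, were both taken at the 2-cell stage and pooled by 6. Stage and pool size therefore cannot be told apart where embryos are set against oocytes. The labels name no treatment, age or genotype, and do not name the donor cell of the SCNT embryos. They give the MII samples the stage oocyte, although their tissue label speaks of embryos. Since no label ties a pool to its own animal or culture, p-values reflect just the spread between these libraries, which may be technical.

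A fully grown oocyte is transcriptionally quiet and carries a large store of maternal RNA and of protein made from it. In cattle the main wave of embryonic transcription comes some divisions after the 2-cell stage, so the first cleavage is run mostly from that store, while many stored transcripts are adenylated, translated or degraded. The most abundant of these transcripts hold most of a library's FPKM total. Because FPKM is relative to the whole library, a change among them moves the value of every other gene.

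Gene names are not paired with the identifiers in the files, and the RefSeq gene table for cattle (assembly ARS-UCD2.0) matched 0 of them. Genes are therefore called by their abundance rank, with rank 1 the highest mean FPKM over the 9 libraries, and no function, position or sequence is given for any of them. For the same reason the oocyte and embryo labels could not be checked against marker genes. Identifiers are printed for at most 2 genes per direction and comparison.

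The 185 genes held most of each library's FPKM total, which is not a share of fragments because FPKM is corrected for transcript length. Their share of the FPKM total was 66.1%, 59.5% and 64.0% in MII replicates 1, 2 and 3, with 62.4%, 63.1% and 60.8% in the IVF replicates and 66.7%, 65.1% and 65.6% in the SCNT replicates. The means were 63.2% ± 3.39 (SD, n = 3), 62.1% ± 1.19 (SD, n = 3) and 65.8% ± 0.799 (SD, n = 3). Every SCNT library lay above every IVF library, and the oocyte libraries spanned both, with MII replicate 2 the lowest of all 9. Of the oocyte libraries only MII replicate 1 reached the SCNT range, and 1.44% of its total was rank 74, listed at 0 in the other 8 libraries. Without ranks 74 and 80, the members listed at 0 in most libraries, the mean shares were 62.4% in MII, 61.8% in IVF and 65.8% in SCNT libraries. The members' summed FPKM ran from 686178 to 916602 between libraries, a range of 230424, while the sum of all other genes ran from 425282 to 470376, a range of 45095. The FPKM totals, 1153912 to 1386979, thus differed mainly through the members. These levels chose the genes and are given as a description, with no test. FPKM is relative to its library, so these values give neither the number of cells nor the RNA per cell in a pool.

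**Figure D1:**
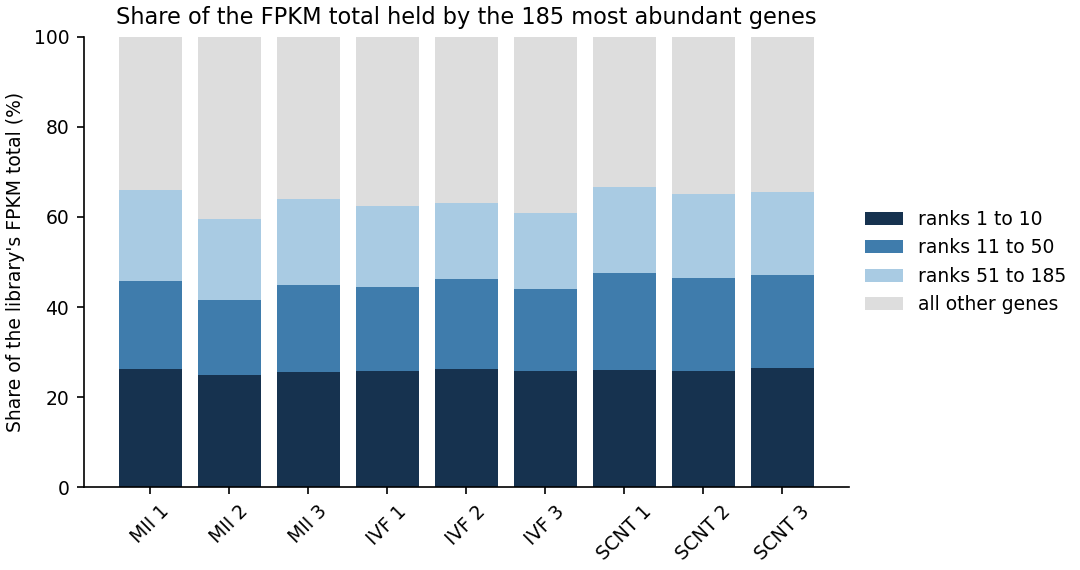
Stacked bars give, for each of the 9 libraries, the percent of the FPKM total held by members of ranks 1 to 10, 11 to 50 and 51 to 185 and by all other genes. The lowest member share is that of MII replicate 2 (59.5%) and the highest that of SCNT replicate 1 (66.7%), while ranks 1 to 10 stay between 25.0% and 26.5%.

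Within the members the distribution was steep. A mean of at least 10000 FPKM was reached by 13 members, 21 lay between 5000 and 10000, 52 between 2000 and 5000, and 99 between 1000 and 2000. Ranks 1 to 10 took 25.7% ± 0.679 (SD, n = 3) of the total in oocytes, 25.9% ± 0.202 (SD, n = 3) in IVF and 26.1% ± 0.416 (SD, n = 3) in SCNT embryos, so the groups overlapped. Ranks 11 to 50 took 18.4% ± 1.67 (SD, n = 3), 19.0% ± 0.924 (SD, n = 3) and 20.98% ± 0.566 (SD, n = 3), with every SCNT library above every other library. Ranks 51 to 185 took 19.1% ± 1.17 (SD, n = 3), 17.1% ± 0.623 (SD, n = 3) and 18.7% ± 0.294 (SD, n = 3), with every IVF library below every other library. As few as 57 genes, in SCNT replicate 1, and at most 86, in MII replicate 2, held 50% of a library's FPKM total.

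The gene of rank 1 was above that of rank 2 in some libraries and below it in others. Rank 1 was at 79356, 41452 and 47202 FPKM in MII replicates 1 to 3, at 56529, 52513 and 58149 FPKM in the IVF replicates and at 72307, 54522 and 72426 FPKM in the SCNT replicates. Rank 2 was at 47942, 54189 and 51243 FPKM in the oocytes, at 65586, 60563 and 63780 FPKM in the IVF embryos and at 58570, 62402 and 55775 FPKM in the SCNT embryos. Rank 2 was in place 3 in MII replicate 1, behind rank 7, and rank 1 was in place 3 in MII replicate 2, behind rank 4. Rank 1 overlapped between all groups. Rank 2 lay below every embryo library in every oocyte library, but without passing the test (adjusted p = 0.0876 for IVF and 0.247 for SCNT against oocytes, limma).

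Rank 3 was one of the steadiest genes of the set, with 47842, 36677 and 39040 FPKM in oocytes, 41564, 38976 and 40473 FPKM in IVF embryos and 41140, 40200 and 42837 FPKM in SCNT embryos. Its groups overlapped and its highest library was 1.30 times its lowest. Rank 4 was at 47246, 44513 and 44023 FPKM in oocytes, above all IVF libraries (31844, 36461 and 33824 FPKM), with the SCNT libraries (33937, 45035 and 36573 FPKM) overlapping both. It was lower in IVF embryos than in oocytes (log2 change -0.41, adjusted p = 0.0411, limma), a call lost in 10 of 19 alternative settings. Rank 5 stayed between 21298 and 30045 FPKM and passed no test.

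Rank 7 showed the largest separation of groups among the top 10. It was at 48085, 30097 and 35042 FPKM in oocytes, at 13950, 13170 and 14790 FPKM in IVF embryos and at 18234, 21814 and 22071 FPKM in SCNT embryos. The 3 groups did not overlap, with oocytes highest and IVF embryos lowest. It fell by 1.41 on the log2 scale in IVF embryos (adjusted p = 0.000106, limma) and by 0.84 in SCNT embryos (adjusted p = 0.00295, limma), while SCNT and IVF embryos were not called apart (log2 change 0.56, adjusted p = 0.088, limma). Its share of the total was 2.95% ± 0.457 (SD, n = 3) in oocytes, 1.16% ± 0.0692 (SD, n = 3) in IVF and 1.61% ± 0.157 (SD, n = 3) in SCNT embryos. Rank 8 was also highest in an oocyte library, at 20382, 25602 and 38295 FPKM in oocytes, 22456, 14065 and 24857 FPKM in IVF and 13481, 19600 and 17963 FPKM in SCNT embryos, and passed no test (adjusted p = 0.0521 for SCNT against oocytes, limma).

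Some genes of the top 20 lay higher in SCNT embryos or in both kinds of embryo. Rank 9 was at 12569, 7045 and 10574 FPKM in oocytes, at 13214, 23904 and 11610 FPKM in IVF and at 19747, 20170 and 19239 FPKM in SCNT embryos. Its SCNT libraries lay above all oocyte libraries (log2 change 1.01, adjusted p = 0.00975, limma), while IVF and oocyte libraries overlapped and were not called apart (adjusted p = 0.0611, limma), although IVF replicate 2 was its highest library. Rank 12 was at 6562, 2762 and 6307 FPKM in oocytes, at 12693, 16629 and 9833 FPKM in IVF and at 16063, 19255 and 13056 FPKM in SCNT embryos. Both kinds of embryo lay above the oocytes, by 1.39 (adjusted p = 0.00365, limma) and 1.71 (adjusted p = 0.00119, limma) on the log2 scale. Ordered by group means, this gene was in place 32 in oocytes, 11 in IVF and 10 in SCNT embryos. Rank 15 went from place 40 in oocytes to 14 and 12, with changes of 1.30 (adjusted p = 0.00154, limma) and 1.75 (adjusted p = 0.000272, limma). Rank 13 went the other way, from place 9 in oocytes to 15 in IVF and 17 in SCNT embryos, with changes of -0.42 (adjusted p = 0.0235, limma) and -0.47 (adjusted p = 0.0151, limma). The calls of ranks 12 and 15 were kept in all 19 alternative settings, and that of rank 13 was lost in 5 of 19 for IVF and in 3 of 19 for SCNT embryos. Rank 16 was lower in IVF embryos (adjusted p = 0.0139, limma), a call lost in 2 of 19. Rank 17 was higher in IVF (adjusted p = 0.0247, limma, lost in 6 of 19) and SCNT embryos (adjusted p = 0.00614, limma). Ranks 6 and 18 were higher in SCNT embryos (adjusted p = 0.0209 and 0.0487, limma), lost in 6 and 9 of 19. Ranks 10, 11, 14, 19 and 20 passed no test.

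**Figure D2:**
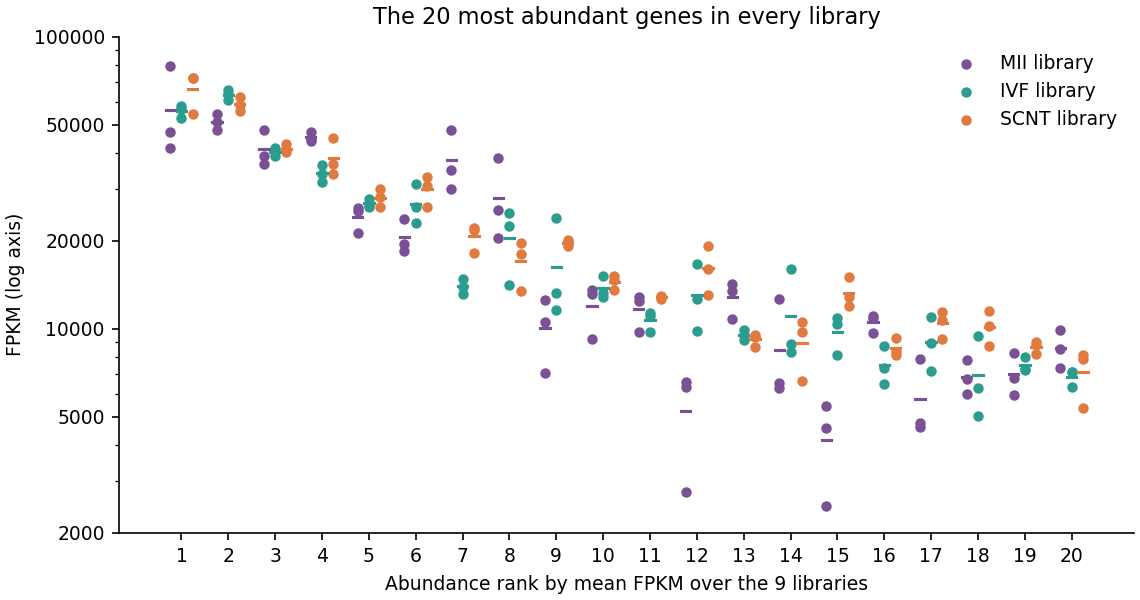
Points are FPKM (log axis) of the 20 most abundant genes in each of the 9 libraries, by abundance rank, and short lines are the group means. Rank 3 stays within 36677 to 47842 FPKM, rank 7 is highest in the oocyte libraries, and ranks 12 and 15 are lowest in them.

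The order of the genes was partly shared by all libraries. In every library 6 members were among its 10 highest genes, and 15 genes were among the 10 highest of at least 1 library. For the 100 highest these numbers were 68 and 141. All 9 libraries were at 1000 FPKM or more for 118 of the 185 members. The group mean reached 1000 FPKM for 164 members in oocytes, 159 in IVF and 170 in SCNT embryos. The members just inside the threshold, ranks 184 and 185, had means of 1007 and 1004 FPKM, and the genes just outside had 994 and 991 FPKM.

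Members differed widely in how steady they were. The highest library was less than 1.5 times the lowest for 30 members, 1.5 to 2 times for 65, 2 to 3 times for 53 and 3 times or more for 35 of the 183 that were above 0 everywhere, with a median of 1.92. The steadiest was rank 158, with 1199, 1253 and 1196 FPKM in oocytes, 1195, 1158 and 1096 FPKM in IVF and 1117, 1100 and 1227 FPKM in SCNT embryos, chosen after its values were seen. At the other end, 2 members were listed at 0 in most libraries. Rank 74 was at 20010 FPKM in MII replicate 1, 1.44% of that library's FPKM total, and was listed at 0 in the other 8. Rank 80 was at 9483 FPKM in MII replicate 2 and 9439 FPKM in IVF replicate 1 and was listed at 0 in the other 7. A listed 0 can be a failed estimate, so no fold is given, and these 2 members reached the threshold through 1 and 2 libraries. Next in spread was rank 88, with 3719, 1520 and 910 FPKM in the SCNT replicates (coefficient of variation 72.1%), against 2905, 2641 and 2299 FPKM in IVF embryos and 1966, 569 and 993 FPKM in oocytes.

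For the tests, a gene had to reach 1 FPKM in 3 or more libraries (9458 genes did), and limma was fitted to log2(FPKM + 1) of all of them, with p-values adjusted over all. Of the members, 183 of 185 passed this filter, each with at least 1 FPKM in all 9 libraries, and only ranks 74 and 80 did not. The rule used no contrast between groups. Still, a gene low in 1 group could reach a mean of 1000 FPKM only by being high in another. The group mean was under 1000 FPKM for 21 members in oocytes, 26 in IVF and 15 in SCNT embryos. For a member with a group mean under 1000 FPKM, a difference between that group and the others was thus favoured by the choice of genes, and such members are given as a description. Counts called at an adjusted p under 0.05, in the reported fit and some other settings, are therefore also given for the 138 members whose 3 group means all reached 1000 FPKM. The 2 comparisons with oocytes share the oocyte libraries, and each embryo group serves in 2 comparisons.

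From oocyte to IVF embryo, more of the most abundant genes fell than rose. With limma, 32 of 183 members were higher and 66 lower in IVF embryos, where 44.5% and 9.47% of all 9458 genes were called higher and lower. Among the 138 members at 1000 FPKM in every group mean, 17 were higher and 44 lower, with 11 higher without IVF replicate 2 and 28 lower without MII replicate 1. With a library left out, the share of all genes was not counted here, so these counts have no background beside them. The median log2 change of the members was -0.18, against 0.40 for all genes tested, and the changes of single members ran from -3.17 to 3.34. This balance depended on the scaling. Median-ratio scaling gave 18 higher and 84 lower (34.1% and 16.7% of all genes), and FPKM rescaled to a common total gave 46 and 65 (45.5% and 7.32% of all genes). With the other genes set to the same sum there were 32 and 62 (46.5% and 9.01% of all genes). Quantile normalization, which makes the libraries' distributions equal, gave 54 and 43 (21.1% and 23% of all genes), and there alone the higher count was the larger. Equal distributions remove a shift shared by the most abundant genes, so this count cannot tell whether their balance holds. Among the 138, median-ratio scaling gave 7 higher and 60 lower, and a common total gave 29 and 44. The same sum of the other genes gave 17 and 40, and quantile normalization 35 and 26. The median of all genes was -0.05 with quantile normalization and 0.21 with median-ratio scaling.

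Rank 101 (ENSBTAG00000015156) had the largest fall. It was at 4921, 3096 and 4298 FPKM in oocytes, at 392, 409 and 552 FPKM in IVF and at 485, 624 and 863 FPKM in SCNT embryos, and no embryo library came near an oocyte library. In IVF embryos its log2 change was -3.17 (SE 0.232), or -3.57 relative to the median of all genes. With embryo means under 1000 FPKM it was a member only through the oocyte libraries, so this fall is a description. Rank 29 (ENSBTAG00000034496) fell from place 11 in oocytes to place 83 in IVF embryos. It was at 16015, 5261 and 14130 FPKM in oocytes, 1556, 2182 and 1696 FPKM in IVF and 1386, 2938 and 4377 FPKM in SCNT embryos. MII replicate 2 was well below the other oocyte libraries but still above every embryo library, and the log2 change was -2.56 (SE 0.447, adjusted p = 0.000725, limma). Further large falls were those of ranks 161, 95, 124, 110, 7, 185, 96 and 157, with log2 changes from -2.56 to -1.23. The IVF mean was under 1000 FPKM for ranks 161, 95, 124, 110, 185 and 157 as well, so their falls too were favoured by the choice of genes, whereas ranks 29, 7 and 96 were above 1000 FPKM in every group mean.

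The largest rises in IVF embryos were those of members that were rather scarce in oocytes. Rank 153 (ENSBTAG00000032451) was at 159, 125 and 180 FPKM in oocytes, at 1765, 1454 and 1482 FPKM in IVF and at 1655, 1967 and 1919 FPKM in SCNT embryos. The oocyte libraries lay far below all embryo libraries, and the log2 change in IVF embryos was 3.34 (SE 0.15). By group means it was in place 937 in oocytes, 93 in IVF and 102 in SCNT embryos. Rank 92 (ENSBTAG00000012062) was at 361, 351 and 412 FPKM in oocytes, at 2592, 2411 and 2539 FPKM in IVF and at 2726, 2887 and 2582 FPKM in SCNT embryos. Its oocyte libraries lay close together and so did its embryo libraries, and the log2 change was 2.75 (SE 0.111). Ranks 167, 180, 86, 173, 36, 12, 163 and 88 followed with log2 changes from 2.48 down to 1.33. The oocyte mean was under 1000 FPKM for 7 of these 10 genes, which could be members only through the embryo libraries, so their rises are a description, whereas ranks 12, 36 and 88 had oocyte means above 1000 FPKM. In 19 alternative settings none of these 20 genes changed direction, and rank 88 alone lost its call, in 8 of them. Every setting used the same members, so for those favoured by the choice of genes this too is a description.

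**Figure D3:**
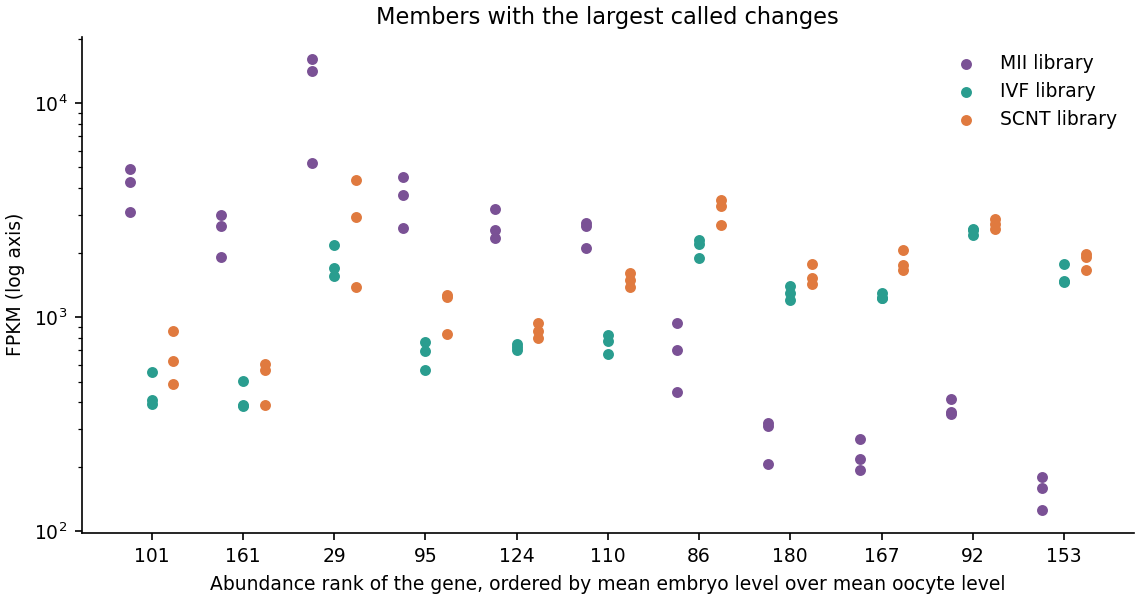
FPKM (log axis) in every library for the 11 members that were among the 5 largest called changes per direction in a comparison, ordered from left by the mean embryo level over the mean oocyte level. Ranks 101, 161, 29, 95, 124 and 110 are highest in the oocyte libraries, and ranks 86, 180, 167, 92 and 153 are lowest in them.

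From oocyte to SCNT embryo, rises and falls were closer in number. With limma, 57 of 183 members were higher and 45 lower in SCNT embryos, where 33.8% and 18.1% of all genes were called higher and lower. Among the 138 members with every group mean at 1000 FPKM or more, 38 were higher and 28 lower, but 13, 18 and 14 were lower without MII replicate 1, MII replicate 3 and SCNT replicate 2. The share of all genes was not counted without MII replicate 3 or SCNT replicate 2, so these counts have no background beside them. The members' median log2 change was -0.08, against 0.16 for all genes tested, and single members ran from -2.65 to 3.58. With the other genes set to the same sum, 61 were higher and 31 lower (37.1% and 15.7% of all genes). Without MII replicate 1 there were 60 and 29 (28.8% and 18.2% of all genes). Without MII replicate 2 there were 47 higher and 51 lower (32.4% and 14.7% of all genes), so the balance turned with that library. It was 58 and 55 with quantile normalization (23.8% and 29.8% of all genes), 58 and 54 with a common total (30.3% and 16.1% of all genes), and 45 and 30 with median-ratio scaling (35.1% and 19.8% of all genes). Among the 138, quantile normalization gave 37 and 38, a common total 38 and 36, and median-ratio scaling 27 and 14. The same sum of the other genes gave 40 and 15. Quantile normalization has the limit named above.

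Rank 153 again rose most (log2 change 3.58, SE 0.15). Rank 167 (ENSBTAG00000016596) was at 216, 194 and 269 FPKM in oocytes, at 1228, 1230 and 1300 FPKM in IVF and at 1668, 2061 and 1752 FPKM in SCNT embryos. The 3 groups did not overlap, and the log2 change from oocytes to SCNT embryos was 3.01 (SE 0.139). Ranks 92, 180, 86, 159, 168, 36, 48 and 15 followed, with log2 changes from 2.86 down to 1.75. Of these 10, ranks 153, 167, 92, 180, 86, 159 and 168 had oocyte means under 1000 FPKM and were members only through embryo libraries, so their rises are a description, whereas ranks 36, 48 and 15 were above 1000 FPKM in every group mean. Among the genes that fell, rank 101 led again (log2 change -2.65, SE 0.232). Rank 161 (ENSBTAG00000039582) was at 3002, 1914 and 2670 FPKM in oocytes, at 500, 388 and 383 FPKM in IVF and at 389, 601 and 568 FPKM in SCNT embryos, so both kinds of embryo lay below every oocyte library. Its log2 change was -2.28 (SE 0.207). Ranks 29, 95, 124, 184, 157, 185, 118 and 160 fell by between 2.02 and 0.85 on the log2 scale. Ranks 29, 95 and 118 had SCNT means above 1000 FPKM, and the other 7 falls, with SCNT means under it, were favoured by the choice of genes. All 20 genes kept their direction and their call in the 19 alternative settings. Every setting used the same members, so for those favoured by the choice of genes this too is a description.

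**Figure D4:**
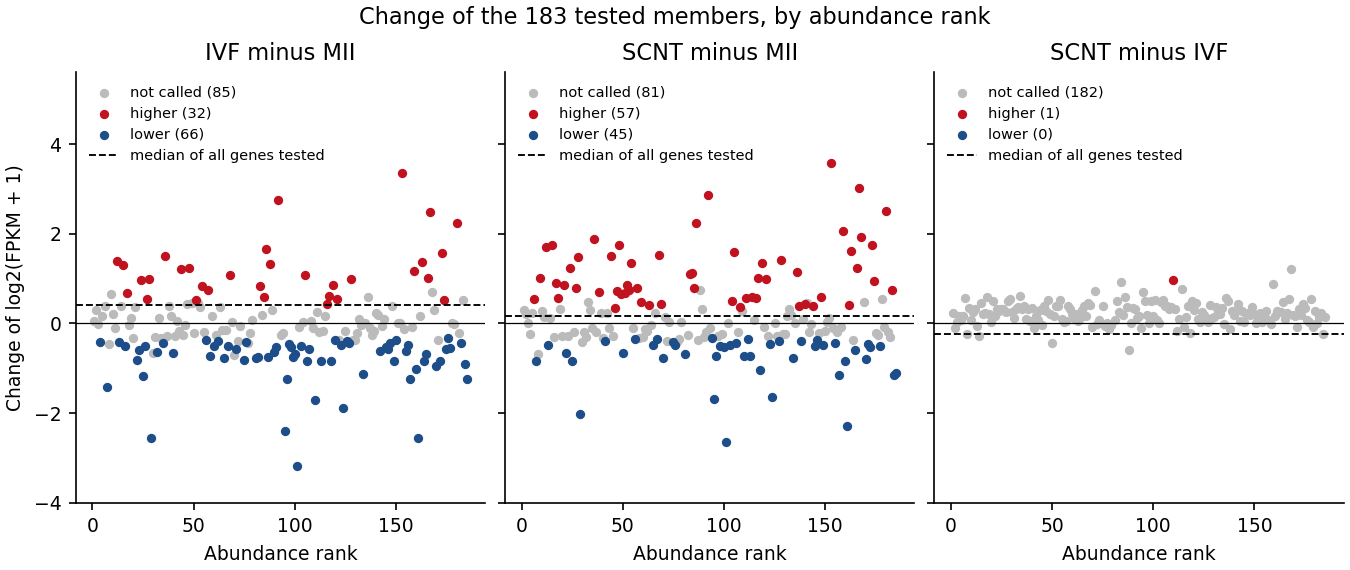
Change of log2(FPKM + 1) of the 183 tested members against their abundance rank in the 3 comparisons, coloured by call (limma, adjusted p under 0.05), with the median of all 9458 genes tested as a dashed line. IVF minus MII has 32 members higher and 66 lower, SCNT minus MII 57 and 45, and SCNT minus IVF 1 and 0.

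Between SCNT and IVF embryos most members lay a little higher in SCNT libraries, and 1 passed the test. That was rank 110 (ENSBTAG00000047694), at 1608, 1488 and 1384 FPKM in SCNT embryos, 825, 776 and 675 FPKM in IVF embryos and 2762, 2098 and 2652 FPKM in oocytes. The 3 groups did not overlap, with SCNT embryos between IVF embryos and oocytes. The log2 change was 0.98 (SE 0.138), or 1.22 relative to the median of all genes. Its IVF mean was under 1000 FPKM, so this difference was favoured by the choice of genes and is given as a description. Among the 138 members with every group mean at 1000 FPKM or more, 0 were called. The call of rank 110 was lost in 6 of 19 alternative settings, among them those without SCNT replicate 2 or 3 and without IVF replicate 2 or 3. The background at this threshold was 0.116% of all genes higher and 0.0634% lower.

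That count says little about how alike the embryos were. At an unadjusted p under 0.05, limma gave 43 members higher and 1 lower, against 3.5% and 26.7% of all genes. At an adjusted p under 0.1, a threshold added after the data had been seen, it gave 23 higher and 1 lower, against 1.66% and 13.4% of all genes. When only the 6 embryo libraries were fitted, 30 members were higher and 0 lower at 0.05 (1.49% and 11.9% of all genes). Without MII replicate 2 there were 33 and 0 (1.79% and 15.2% of all genes), so this count moved with the oocyte libraries, which enter only the shared estimate of the spread. Among the 138, these settings gave 19 and 21 higher. The libraries of the 2 groups did not overlap for 76 of 183 members with SCNT embryos above and for 2 with SCNT embryos below, ranks 50 and 184, where the background was 4.63% of all genes above and 36.7% below. The counts without overlap, at an unadjusted p and at 0.1 were not made for the 138 members. More members were under 1000 FPKM in the IVF mean (26) than in the SCNT mean (15), so the choice of genes favoured SCNT embryos above. The members' median log2 change was 0.22, against -0.25 for all genes and -0.06 for the 1100 genes with a mean of 100 to 1000 FPKM. Of those 1100 genes, 154 lay above and 277 below without overlap.

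The size of this difference followed the scaling. The counts below were made over all tested members and so include those favoured by the choice of genes. Without overlap, 53 members lay above and 4 below with a common total, where 2.87% and 45.9% of all genes did. With the other genes set to the same sum 88 lay above and 2 below (6.04% and 33.3% of all genes), and with median-ratio scaling 133 above and 0 below (13.4% and 15.7% of all genes). With quantile normalization 20 lay above and 22 below, or 10.9% and 12.02% of the members against 10.8% and 14.4% of all genes, and the members' median log2 change was -0.01. Under that scaling the members were near the background and showed no direction. It gives every library the same set of values, so a shift shared by the most abundant genes is removed beforehand. It therefore cannot tell whether their direction holds.

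Some single members show the range, chosen here after their values were seen, and none of them passed the test in the reported fit. Rank 168 was at 2731, 1639 and 1436 FPKM in SCNT embryos, 944, 688 and 783 FPKM in IVF embryos and 829, 227 and 632 FPKM in oocytes. Its SCNT libraries stood above all others, with the widest change of any member (log2 change 1.22). Its IVF and oocyte means were under 1000 FPKM, so it was a member only through the SCNT libraries. Rank 84 was at 3456, 3266 and 2463 FPKM in SCNT embryos, 1880, 1685 and 1276 FPKM in IVF embryos and 1733, 816 and 1898 FPKM in oocytes, again with the SCNT libraries highest and IVF and oocyte libraries overlapping. Rank 71 was at 2854, 2913 and 2848 FPKM in SCNT embryos, close together, against 1841, 1729 and 1692 FPKM in IVF embryos and 3058, 2187 and 2680 FPKM in oocytes. Its SCNT and oocyte libraries overlapped and its IVF libraries lay below both. It was not called in the reported fit (log2 change 0.71, adjusted p = 0.0639, limma) but was with a common total (log2 change 0.61, adjusted p = 0.0424, limma). Rank 50 was the reverse, with 2984, 2760 and 2657 FPKM in SCNT embryos against 4022, 3177 and 4342 FPKM in IVF embryos and 4598, 4981 and 3822 FPKM in oocytes.

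A block of 14 members had neighbouring identifiers, within 35 consecutive numbers, while the next longest such run held 3 members (gaps of at most 20). This grouping was made after the values had been seen, and no function or position is attached to it. The other 20 identifiers listed in that span were under 1 FPKM in all 9 libraries, 18 of them at 0 throughout. The block held ranks 1, 6, 9, 12, 17, 18, 21, 27, 28, 33, 47, 53, 57 and 166. Its share of the FPKM total was 12.1%, 8.7% and 9.61% in the MII replicates, 13.2%, 16.03% and 11.9% in the IVF replicates and 16.4%, 14.1% and 15.8% in the SCNT replicates. Every SCNT library lay above every oocyte library, and the IVF libraries overlapped both. The remaining members took 53.1% ± 2.01 (SD, n = 3) in oocytes, 48.4% ± 1.14 (SD, n = 3) in IVF and 50.4% ± 0.606 (SD, n = 3) in SCNT embryos.

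Members of the block were called in 1 direction only. Against oocytes, 12 of 14 were higher in SCNT embryos, where 33.8% of all genes were, and 13 of 14 were above without overlap, where 37.3% of all genes were. For IVF embryos 6 of 14 were higher, a share (42.9%) near the 44.5% of all genes. None was lower in either comparison. Between settings the higher calls ran from 10 to 13 for SCNT embryos. There were 10 with median-ratio scaling (35.1% of all genes) and 13 without MII replicate 1 (28.8% of all genes). For IVF embryos they ran from 2, with median-ratio scaling (34.1% of all genes), to 10. That 10 came with a common total (45.5% of all genes) and with quantile normalization (21.1% of all genes). The IVF count was 3 without IVF replicate 2 and 3 without MII replicate 2, the libraries with the highest and lowest block share of their groups, and 9 without IVF replicate 3 or MII replicate 1. With these libraries left out, the share of all genes was not counted for IVF embryos. Of the remaining 169 members, 45 were higher and 45 lower in SCNT embryos and 26 higher and 66 lower in IVF embryos. The block's median log2 change was 0.79 from oocytes to SCNT embryos, 0.49 to IVF embryos and 0.30 between SCNT and IVF embryos, where no block member was called (2 of 14 at an unadjusted p under 0.05, limma).

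**Figure D5:**
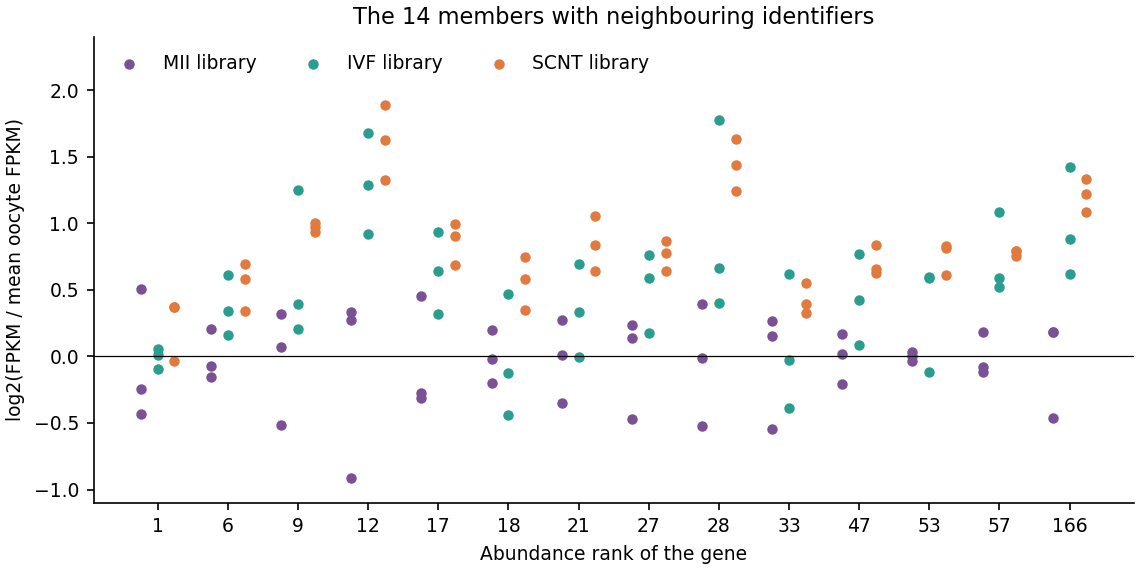
log2 of FPKM over the mean oocyte FPKM in each library for the 14 members with neighbouring identifiers, by abundance rank. Except for rank 1, the SCNT libraries lie above the oocyte libraries of the same gene, and their FPKM have a smaller SD than those of the IVF libraries.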

How the data were processed

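Per the labels' protocols, cDNA of pooled oocytes or embryos was tailed and amplified before library preparation, a step that can distort levels from few cells. The authors deposited 1 table of FPKM values, whose unit comes from its name. The submitters' processing notes name RSEM 1.2.12, Bowtie2 2.2.5, StringTie 1.0.4, HISAT 0.1.6, bcl2fastq 2.16 and UMD3.1 as the genome build, without saying which made the FPKM. No strand-marking step is described, so overlapping, antisense and near-identical genes are uncertain. Absolute depth is unknown. Steps between low FPKM values put the libraries at 80.3% to 100% of the deepest, MII replicate 1 being the lowest, a rough estimate because no more than 23.6% of the genes used in a compared library lay within 0.03 of it on the log2 scale.

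Samples were grouped by title. Values were taken as log2(FPKM + 1), which understates the change of low genes, and the 9 libraries were fitted together in limma 3.58.1 (R 4.3.3), with a mean-variance trend and Benjamini-Hochberg adjustment over 9458 genes (threshold 0.05). Shares, ranks and figures used Python 3.11.15, numpy 2.4.6, pandas 2.3.3 and matplotlib 3.10.9. Named genes were the 20 most abundant, per comparison the 10 largest called changes per direction without overlap, those at the threshold, those listed at 0 and those of largest spread. Gene lists and cell type markers by symbol were not analysed here, since no identifier matched a name. The members and rules were chosen with earlier results of these data known. The fit was tested on simulated data. Alternatives were pseudocounts, filters, scalings, a fit of the groups compared only, a replicate block, and leaving out each library.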

Additional observations from a re-analysis of the deposited data

How the results depend on the processing

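Whether replicate numbers in the titles pair the libraries cannot be settled with 3 libraries per group. Deviations of same-numbered libraries of different groups correlated between -0.167 and -0.000782 over 9 pairs. For libraries with different numbers the range was -0.0917 to 0.111 over 18 pairs. With a replicate block, 0 members were called between SCNT and IVF embryos by limma (39 at an unadjusted p under 0.05), 94 between IVF embryos and oocytes and 93 between SCNT embryos and oocytes, against 1, 98 and 102 without it. Between SCNT and IVF embryos the count was also 0 without a filter on low values (39 at an unadjusted p under 0.05), 2 with FPKM rescaled to a common total, 30 with only the groups compared, 24 at the added threshold of 0.1, and between 0 and 33 with 1 library left out. It was 0 in limma without IVF replicate 2, IVF replicate 3, SCNT replicate 2 or SCNT replicate 3 (40, 32, 38 and 28 at an unadjusted p under 0.05) and 33 without MII replicate 2. The unadjusted counts join both directions, and their share of all genes was not counted in these settings. In the reported fit, that threshold gave 43 members higher and 1 lower in limma, against 3.5% and 26.7% of all genes. The counts against oocytes stayed within 1.5 times the reported ones in every setting, at 77 to 101 (IVF) and 81 to 98 (SCNT) with 1 library left out. They join both directions, and the share of all genes was not counted for each setting. With quantile normalization the IVF count of 97 was 54 higher and 43 lower (21.1% and 23% of all genes), against 32 and 66. Of those 97 calls, 75 were shared with the reported fit.

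Without the 10 most abundant genes in members and total, the share was 50.5% in MII, 48.8% in IVF and 53.7% in SCNT libraries. With members chosen by the median of the 9 libraries (169 genes, 168 of them members) it was 60.4%, 60.9% and 64.8% in MII, IVF and SCNT libraries, with MII below IVF instead of above, and with 1 library left out 61.7% to 65.1%, 61.6% to 62.7% and 65.4% to 66.2%. What depth limits was not tested, since absolute depth is unknown, and each group has 3 libraries.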

Other observations

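Some genes outside the set reached 1000 FPKM in a group mean: 29 in oocytes, 1 in IVF embryos and 11 in SCNT embryos. A single library held from 160 genes at 1000 FPKM or more (IVF replicate 1) to 212 (MII replicate 1), with 177 or 178 in each SCNT library and 160 to 164 in the IVF libraries.

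The spread between libraries of a group was widest in oocytes. The median coefficient of variation of the 183 tested members was 15.5% in oocytes, 7.72% in IVF and 10.6% in SCNT embryos. Genes with a mean of 100 to 1000 FPKM had medians of 12.1%, 8.02% and 10.2%.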
